A study of Homo sapiens with 20 samples.

Results

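HIF1A binding after 24 h in hypoxia (1% oxygen) was compared between HCT116 and RKO, 2 established colon cancer cell lines. The labels call HCT116 a colorectal carcinoma line and RKO a colon carcinoma line. The series profiled HIF1A by chromatin immunoprecipitation and sequencing (ChIP-seq) in 4 human cancer lines, the other two being the lung lines A549 and H460, in normoxia and hypoxia with 2 replicates each and 1 input library of genomic DNA per line. The comparison used the 2 hypoxia peak lists of the colon lines, which come from 4 of the 20 samples: 3996 peaks in HCT116 and 9171 in RKO, or 13167 of the 26484 peaks in the 8 lists of the series. A pair was called shared when an HCT116 peak and an RKO peak overlapped by at least 1 bp. By this rule 631 pairs were shared, each joining 1 peak of either line, and 3365 peaks were called in HCT116 only and 8540 in RKO only. No treatment other than hypoxia was applied in these groups, and the lines were grown in different media.

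Several facts about the libraries stand before the results. The authors merged the 2 replicates before calling peaks, so there is 1 list per line, no replicate error and no test of a difference between lines. Intervals below are 95% intervals for counting error only. The merged libraries held 81.5 M tags (1 M is 1000000 tags) in HCT116 and 66.9 M in RKO, and the weakest peaks held 17 and 13 tags. The signal of a peak is its normalized tag count, in tags per 10 M tags of the library. The peak lists hold no expression, so the cell type labels could not be checked against marker levels. The labels of the RKO input disagree: the title and the cell line field name RKO, the description names A549, while the description of the A549 input names RKO, and the source field of each input names HCT116. The peak file headers name an input of the same line for both. Peaks entered a list only when they exceeded this input, by 7-fold in HCT116 and by 6-fold in RKO. In the RKO list 1351 of 9171 peaks (14.7%) had a fold over input from 6 to under 7. The part played by the input in the RKO and A549 lists was not tested. The header of the HCT116 hypoxia list gives its merged tags a name ending in "test", and whether a later merged set exists is not given in the sources used here. A peak that is absent from a list may hold tags below these thresholds, so absence is described as not called, not as not bound.

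HIF1A is the oxygen-regulated subunit of hypoxia-inducible factor. In the presence of oxygen it is hydroxylated by the prolyl hydroxylases of the EGLN family and degraded, and in hypoxia it accumulates and pairs with ARNT. The dimer binds the hypoxia response element (HRE), whose core is ACGTG or GCGTG, close to genes of glycolysis, lactate handling, mitophagy and oxygen sensing.

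Sequences of strong sites of each class are shown first, since the core and its surroundings are what the shared and the one-line sites are compared on below. Only sites with the core are shown. It was present in 12 of the 12 strongest HCT116-only sites and in 8 of the 12 strongest RKO-only sites. Each run has 30 bases of GRCh37, written 5′ to 3′ on the named strand, with the HRE core nearest to the peak centre in capitals.
RRP12 (shared; chr10:99185766-99185795, plus): ctccgcgtgcttACGTGcgctccgtgactg
GPI promoter (shared; chr19:34850232-34850261, plus): cgtccatcccagACGTGcggacccgggtgt
ENO1 (shared; chr1:8939061-8939090, plus): tggcccggggcgGCGTGgcgggcatgagag
LDHA promoter (shared; chr11:18416025-18416054, minus): ggggggccggcggACGTGcgggaacccacg
PDK1 (shared; chr2:173420789-173420818, minus): tggtacgtgagggACGTGgcgggcagcagg
BNIP3 promoter (HCT116 only; chr10:133795545-133795574, plus): ggtgcgtgtggcACGTGcggcgcgtgcgcg
SLC2A1 upstream (HCT116 only; chr1:43473305-43473334, plus): cctacgagcgctACGTGctgccggcccgcg
AMPD3 promoter (HCT116 only; chr11:10329531-10329560, plus): ccgccaagcagtACGTGcggtttaataagt
STC2 promoter (HCT116 only; chr5:172756550-172756579, minus): cggcgcgggggagACGTGagcgtgcacacg
RGS4 (RKO only; chr1:163044723-163044752, minus): tagagtctggagaACGTGctggccaacaga
GBE1 intron (RKO only; chr3:81810233-81810262, minus): tgcgccatagggtACGTGctgtggctccaa
CD247 intron (RKO only; chr1:167486978-167487007, plus): cggcagtcccagGCGTGggtgtggggacag
PFKFB3 intron (RKO only; chr10:6243594-6243623, plus): ggagcatgcgggACGTGagcgacgtgtggc

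The first question was how far the HIF1A sites of the 2 colon lines coincide. The shared pairs made up 15.8% of the HCT116 list (Wilson 95% interval 14.7 to 17.0) and 6.88% of the RKO list (6.38 to 7.42). Most shared peaks sat on nearly the same bases: the centres lay a median of 20 bp apart (quartiles 9 and 40), and 527 of 631 pairs had centres within 50 bp. The largest distance was 150 bp. Shared peaks came from the top of both lists, with a median percentile of 86.8 in HCT116 and 94.6 in RKO. In decile 1 (the strongest) of the HCT116 list, 261 of 399 peaks were called in RKO (65.4%, interval 60.6 to 69.9), and in decile 10 it was 9 of 400 (2.25%, 1.19 to 4.22). In decile 1 of the RKO list, 463 of 917 peaks were called in HCT116 (50.5%, 47.3 to 53.7), and in decile 2 it was 76 of 917 (8.29%, 6.67 to 10.3). The overlap depended on the threshold. A local fold of at least 6 in both lists gave 35.8% of HCT116 peaks and 17.5% of RKO peaks. Both lines come from the colon, yet HCT116 peaks were called more often in the lung line H460 (809 of 3996, 20.2%) than in RKO, and about as often in A549 (629, 15.7%). For RKO the share was 6.93% in H460 and 5.63% in A549. The lists differ in their thresholds, so these shares are descriptions.

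**Figure D1:**
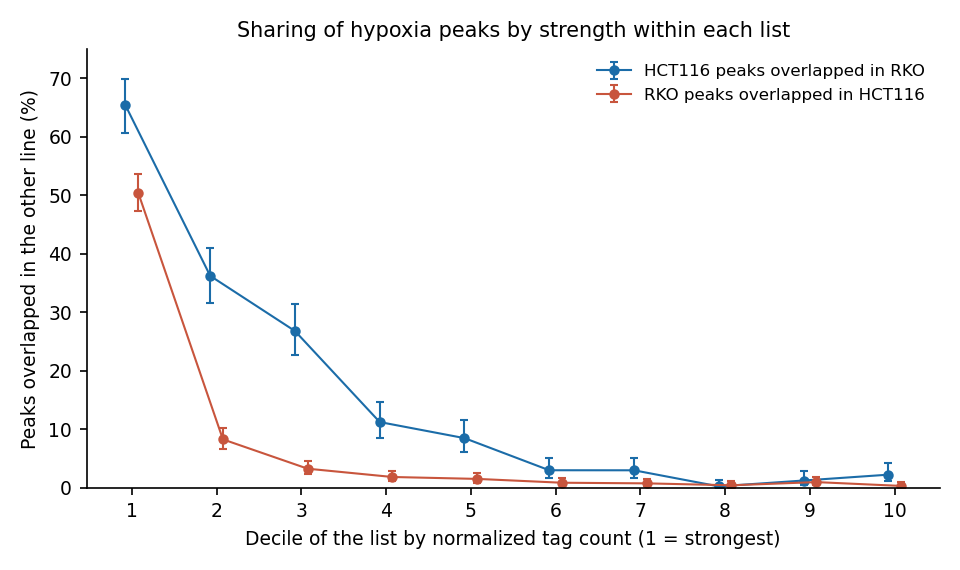
Share of the hypoxia peaks of HCT116 (blue) and RKO (red) that overlapped a peak of the other line, in percent, by decile of each list ordered by normalized tag count, with 1 the strongest. Bars are Wilson 95% intervals. Sharing was 65.4% and 50.5% in decile 1 and at most 3.01% from decile 6 on in both lists.

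The second question was whether shared sites had the same order of strength in both lines. The 10 strongest peaks of HCT116 were all called in RKO and the 10 strongest of RKO were all called in HCT116, with 8 pairs in the top 10 of both. Of the peaks ranked 100 or better, 78 of 99 in HCT116 and 80 of 99 in RKO were called in the other line, and 57 pairs stood in the top 100 of both. Over all 631 pairs Spearman's rho of the normalized tag counts was 0.73. As a description, rho was 0.75 in the 484 pairs within 2500 bp of a transcription start site (TSS) and 0.67 in the 147 farther away. It was 0.80 in the 231 pairs that were also called in A549 and in H460, and 0.55 in the 184 pairs called in neither lung line. The pairs share regions of high GC content and all passed a threshold in both lists, so rho is restricted to the upper range of signal. The order depended on the scale: ranked by fold over input, rho was 0.15 and 15 pairs stood in the top 100 of both. The fold rests on few input tags, since 46.0% of the shared peaks in HCT116 and 31.7% in RKO had 1 input tag or none.

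The 10 pairs that ranked best in both lines included genes of glycolysis, lactate export and pyruvate entry into mitochondria. GPI (glucose-6-phosphate isomerase) had a peak 104 bp upstream of its TSS with 71.5 tags per 10 M in HCT116 and 62.9 in RKO. LDHA, which converts pyruvate to lactate, had 47.0 and 47.7 at a peak 53 bp upstream of its TSS. ANKRD37, an ankyrin repeat gene known as a HIF1A target, had 62.9 and 62.6 in an intron. These pairs differed by less than their counting error from the median ratio of all shared pairs, as did those in SLC16A3, the lactate exporter, and FAM174B. ENO1, which encodes the glycolytic enzyme enolase, had 92.4 in HCT116 and 42.2 in RKO, and ranked 1 and 10. PDK1, the kinase that keeps pyruvate out of the mitochondria, had 69.4 and 39.9 in its 5′ UTR. SCIRT, a lncRNA gene, had 67.3 and 73.5, and was the strongest RKO peak. RRP12, a factor of ribosome assembly, had 83.8 and 61.7 in its 5′ UTR, and NARF had 82.5 and 53.8 in its own. At ENO1, PDK1, SCIRT, RRP12 and NARF the counting interval of the ratio excluded the median, with SCIRT higher in RKO relative to it and the other 4 higher in HCT116. All 10 pairs held the HRE core in both windows and were called in A549 and H460, and 9 of 10 lay within 2500 bp of a TSS. The pairs in FAM174B, NARF and ANKRD37 were also called in normoxia in both lines. Over all 631 pairs, 16 were called in HCT116 normoxia and 25 in RKO normoxia.

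Strength differed between the lines at a minority of the shared sites. The median log2 ratio of HCT116 over RKO was 0.12 over the 631 pairs, and the quartiles were -0.25 and 0.54. RKO peaks are 160 bp wide and HCT116 peaks 148 bp, and per bp of width the median was 0.24. Ratios are given relative to the median from here on. Of the 631 pairs, 41 (6.50%) were more than 2-fold above the median toward HCT116 and 27 (4.28%) were more than 2-fold toward RKO. Among the 41 pairs higher in HCT116, 27 were called in A549 and 32 in H460. Among the 27 higher in RKO, 9 were called in A549 and 10 in H460. Over all 631 pairs the counts were 311 (49.3%) in A549 and 367 (58.2%) in H460. The HRE core stood in both windows of 40 of the 41 pairs, 21 of the 27 pairs and 577 of all 631 pairs. The difference between these groups was not tested.

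**Figure D2:**
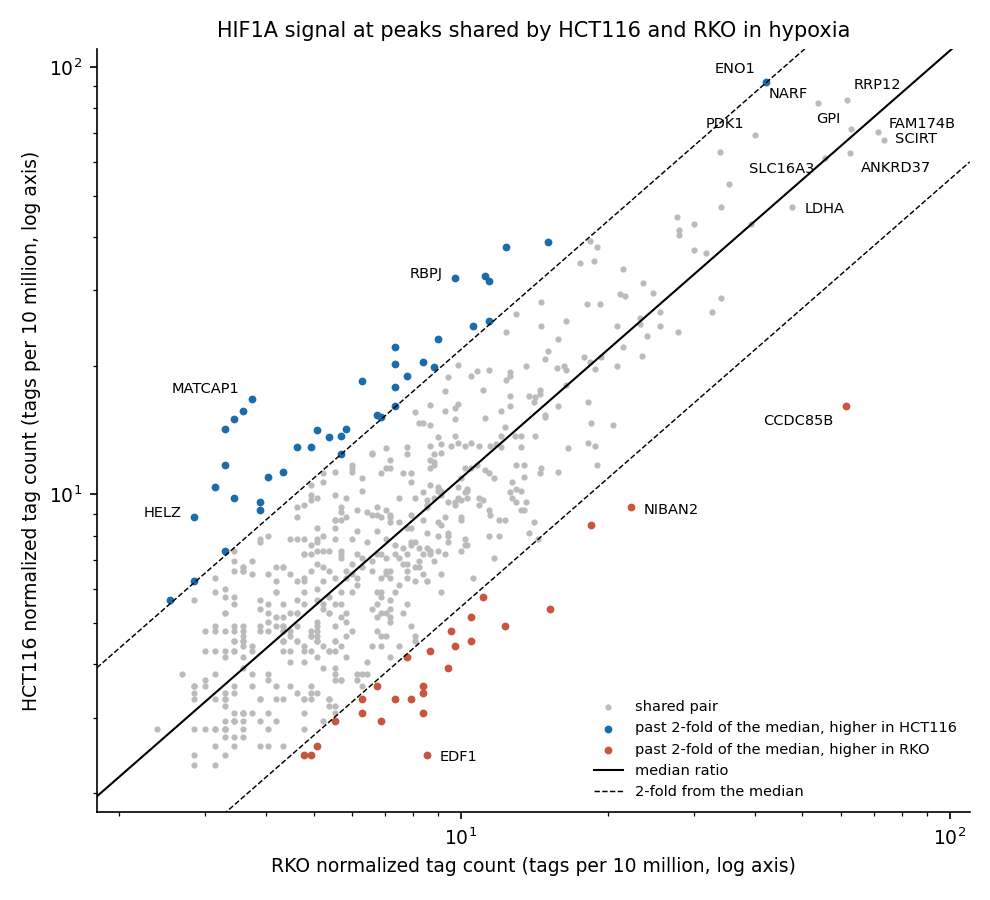
Normalized tag counts (tags per 10 M, log axes) of the 631 shared pairs in RKO (horizontal) and HCT116 (vertical), 1 point per pair. The solid line is the median ratio and dashed lines are 2-fold from it; 41 blue pairs lay above and 27 red pairs below, with ENO1 among the former (relative log2 ratio 1.01) and LDHA near the median (-0.15).

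Some loci among the pairs higher in HCT116 are given here. ENO1 stood at a relative log2 ratio of 1.01 (interval 0.81 to 1.21). A peak in an intron of EGLN3, a prolyl hydroxylase that is itself induced by hypoxia, had 20.2 tags per 10 M in HCT116 and 7.32 in RKO. An intron of MXI1, a transcriptional repressor that pairs with MAX, had 22.1 and 7.32. A peak 7599 bp downstream of the TSS of BHLHE40, a circadian and hypoxia-responsive repressor, had 31.5 and 11.4. An intron of RBPJ, the DNA-binding factor of Notch signalling, had 32.0 and 9.72, a relative log2 ratio of 1.59 (1.20 to 2.01). The highest ratio belonged to a coding exon of MATCAP1, a tubulin carboxypeptidase gene, with 16.7 and 3.74 (2.03, 1.41 to 2.71). Apart from ENO1, these loci were chosen after their values were seen.

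Loci among the pairs higher in RKO are named on the same basis. A peak 1251 bp downstream of the TSS of CCDC85B had 16.1 in HCT116 and 61.4 in RKO (relative log2 ratio -2.06, -2.35 to -1.77), ranks 128 and 6. It was also called in RKO normoxia. NIBAN2 had 9.32 and 22.3 at a peak 13 bp upstream of its TSS. A peak in a lncRNA intron 28373 bp downstream of the TSS of JUN, an AP-1 subunit, had 8.46 and 18.5. Of the 27 pairs, 5 lay on chromosome 9 (EDF1, ERP44, NIBAN2, SURF6 and an intergenic site), against 0 of the 41 pairs higher in HCT116 and 22 of all 631 pairs (3.49%). The chromosome was singled out after the values were seen.

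Ordered by the gap in rank instead of signal, the extreme pairs stood in the lower part of 1 list. Toward RKO these were the promoters of EDF1, a transcriptional coactivator (2.45 in HCT116 and 8.52 in RKO), AMIGO1 (2.45 and 4.93), PHIP (2.58 and 5.08) and KLHL18 (2.58 and 4.33), an intron of RAD51B (2.45 and 4.78) and an intergenic site on chromosome 19 (2.58 and 4.04). Toward HCT116 they were introns of HELZ, a helicase gene (8.83 and 2.84), TEX14 (10.4 and 3.14), SMYD2, a lysine methyltransferase gene (6.26 and 2.84), DPYSL2 (5.64 and 2.54) and LINC02182 (4.78 and 2.99), and the 5′ UTR of HNRNPD, an RNA-binding protein gene (5.64 and 2.84). The counting interval of the ratio included the median at LINC02182 and at the chromosome 19 site. The peak centres of the lines lay 128 bp apart at AMIGO1, 137 bp at RAD51B, 119 bp at SMYD2 and 150 bp at HNRNPD. There the values of the lines need not belong to the same site. At the other pairs named here the distance was at most 59 bp. The 6 pairs toward RKO had 2.45 or 2.58 in HCT116, where the list minimum is 2.09. The 6 toward HCT116 had 2.54 to 3.14 in RKO, where the list median is 3.29.

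The next question was which loci carried the strongest peaks called in 1 line. In HCT116 the first was the promoter of BNIP3, a receptor of mitophagy. Its peak, 89 bp upstream of the TSS, had 32.7 tags per 10 M (267 tags, rank 28), no input tag and 6 HRE cores in 200 bp. It was also called in A549 (59.3) and H460 (96.0), while the nearest RKO peak was 454990 bp away. BNIP3L, the paralog with the same role, had a shared peak with 63.2 in HCT116 and 33.9 in RKO. Glucose transport followed: a site 48774 bp upstream of SLC2A1, which encodes the glucose transporter GLUT1, had 30.1, and an intron of SLC2A3, which encodes GLUT3, had 26.9. The SLC2A1 promoter peak itself was shared, with 14.7 in HCT116 and 18.5 in RKO.

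Other strong HCT116-only sites lay near secreted factors and enzymes. STC2, which encodes the secreted glycoprotein stanniocalcin, had 26.1 at a peak 1133 bp upstream of its TSS, and was called in A549 (48.7) and H460 (52.8). The AMPD3 promoter, 592 bp past the end of the neighbouring gene ADM, which encodes the vasodilator peptide adrenomedullin, had 28.5 and was called in both lung lines and in HCT116 normoxia (3.90). A second EGLN3 intron site had 25.3, with 80.3 in A549 and 71.8 in H460. QSOX1, a disulfide-forming enzyme gene, had 25.8 in an intron, and the nearest RKO peak, 3598 bp away, had 2.84. Sites in an intron of RSPH9 (28.7), the 3′ UTR of the sodium-calcium exchanger gene SLC8A3 (27.4), the start of LINC00511 (28.1) and 24436 bp upstream of KCMF1 (24.2) completed the list together with IER3-AS1. The IER3-AS1 site had 30.3 in HCT116 and was stronger in HCT116 normoxia (37.5). RKO had a peak 203 bp from it with 6.88 in hypoxia and called the same site in normoxia. All 12 sites held the HRE core, 10 of 12 were called in A549 or H460, and 2 of 12 were called in HCT116 normoxia. At IER3-AS1 the nearest core lay 84 bp from the peak centre.

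The strongest RKO-only sites are described by whether RKO normoxia also called them. Of the 5 that it did not call, all held the HRE core in 200 bp and 3 were called in a lung line. At those named below, the nearest core lay 18 bp from the peak centre at GBE1, 18 bp at PFKFB3, 9 bp at CD247 and 67 bp at WDR74. GBE1, the branching enzyme of glycogen synthesis, had 29.1 tags per 10 M at an intron site 567 bp from its TSS, with 52.6 in A549 and 48.9 in H460. HCT116 had a separate peak with 7.36 just 671 bp away, so both lines had a peak near the GBE1 start at different positions. PFKFB3, which makes the activator of phosphofructokinase, had 21.2 in an intron, with 76.2 in A549, 15.6 in H460 and no HCT116 peak in the gene. The WDR74 5′ UTR had 23.6 and was called in H460 (63.3), but it held 13 input tags and a fold over input of 6.84, which would not pass the threshold used for HCT116. CD247, which encodes a chain of the T cell receptor complex, had 24.8 in an intron and was called in neither lung line.

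The other 7 were called in RKO normoxia as well. The RGS4 3′ UTR, in a regulator of G protein signalling, had 32.9 in hypoxia and 31.3 in normoxia. A site 133 bp past the end of VMP1 and 1051 bp from the microRNA gene MIR21 had 32.7 and 31.0. The values were 31.1 and 21.5 at PTOV1, 29.0 and 22.8 at C19orf81 (69 bp past the end of SHANK1), and 22.4 and 20.0 in the 3′ UTR of HMGA1. A SHANK1 intron had 17.0 in hypoxia, and its only HRE core lay 75 bp from the peak centre. A site 7111 bp upstream of BECN2 had 17.8 and 3.77, the widest gap between the conditions among these sites. Of these 7 sites, 4 lacked the HRE core (VMP1, PTOV1, C19orf81 and HMGA1). At VMP1, HCT116 had peaks of its own with the HRE core at 768 bp (19.1) and 1357 bp (15.6). In all, 8 of the 12 RKO-only sites held the HRE core, 4 of 12 were called in A549 or H460, and 7 of 12 were called in RKO normoxia.

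**Figure D3:**
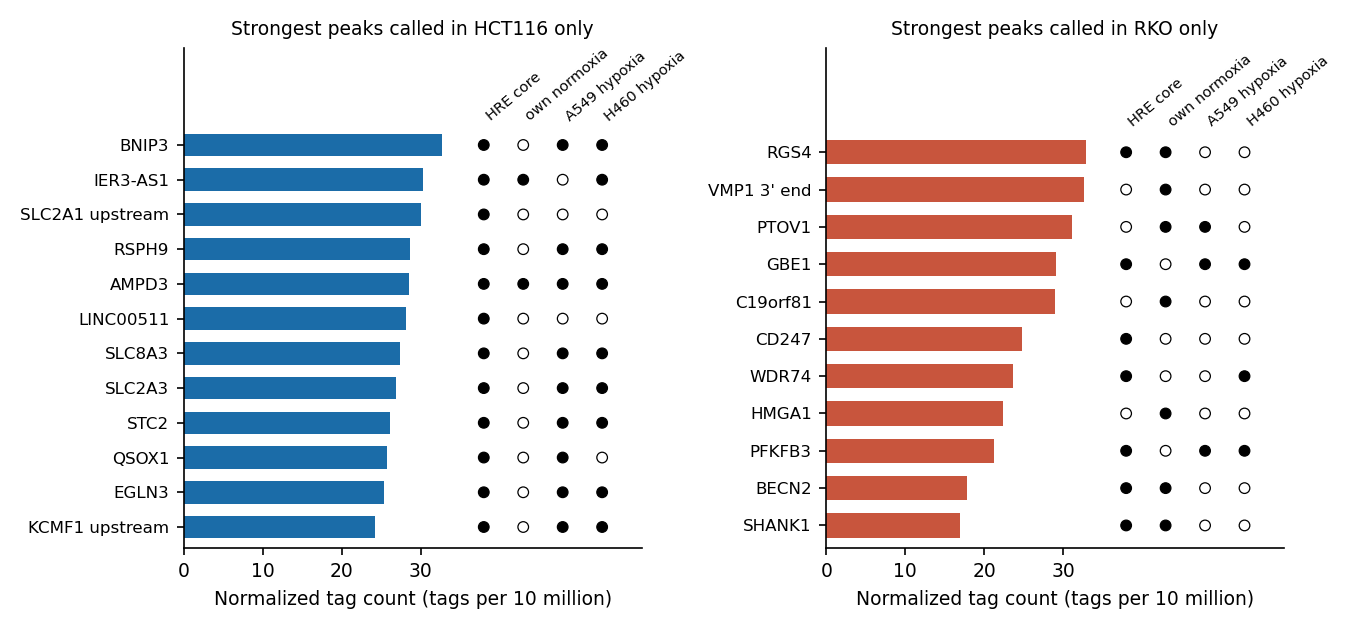
The 12 strongest hypoxia peaks called in HCT116 only (left) and 11 of the 12 strongest called in RKO only (right), as bars of the normalized tag count in tags per 10 M; filled circles mark, and open circles lack, an HRE core in the 200 bp window and an overlapping peak in normoxia of the same line, in A549 hypoxia and in H460 hypoxia. All 12 HCT116 sites held the core and 2 were called in HCT116 normoxia, while 7 of the 11 RKO sites drawn held it and 7 were called in RKO normoxia.

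The counts were then taken over 100 sites per line. Of the 100 strongest HCT116-only peaks, 95 held the HRE core, 75 were called in A549 or H460 and 5 were called in HCT116 normoxia. Of the 100 strongest RKO-only peaks, 84 held the core, 56 were called in a lung line and 17 were called in RKO normoxia. The core was present in 7 of these 17 and in 77 of the other 83. The 3′ UTR held 8 of the 17 peaks and 6 of the 83. Over all 8540 RKO-only peaks, 73 were called in RKO normoxia, of which 33 held the core and 18 lay in a 3′ UTR. Of the other 8467, 2180 held the core and 229 lay in a 3′ UTR. Over all 3365 HCT116-only peaks, 21 were called in HCT116 normoxia.

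The third question was what sites called in 1 line have in common beyond the strongest. Letters of the HRE core were counted on either strand within 200 bp centred on each peak. It stood in 92.6% of shared HCT116 peaks (interval 90.2 to 94.4), 60.0% of HCT116-only peaks (58.4 to 61.7) and 25.9% of RKO-only peaks (25.0 to 26.9). Windows of the same length 2000 bp to either side held it in 24.6%, 23.6% and 19.1%. In windows with a core, the median distance from the centre to the nearest one was 14 bp at shared peaks, 23 bp at HCT116-only peaks and 30 bp at RKO-only peaks. A share of 59.7%, 29.2% and 10.4% held at least 2 cores. The E-box CACGTG, which contains the core, was in 16.0%, 8.32% and 3.95%. RKO-only peaks were near the flank level from the second quartile of the list on, at 23.2%, 20.7% and 17.7%, with flanks at 18.7%, 18.6% and 17.6%. HCT116-only peaks stayed above their flanks in each quartile, from 89.9% down to 42.5%.

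Proximity to a TSS and GC content had the same order of classes. Within 2500 bp of a TSS lay 76.7% of shared HCT116 peaks (73.2 to 79.8), 40.7% of HCT116-only peaks (39.1 to 42.4) and 16.1% of RKO-only peaks (15.4 to 16.9). The median GC content of the window was 68.0%, 61.0% and 43.0%, while the flanks had 46.5%, 45.3% and 41.5%. The GGGCGG box of SP and KLF factors stood in 59.0%, 35.2% and 9.16% of windows, with flanks at 8.32%, 6.43% and 4.06%. The TGACTCA site of AP-1 stood in 8.56%, 7.37% and 4.93%, with flanks at 2.54%, 2.90% and 3.27%. The CCGGAAG site of ETS factors stood in 10.1%, 6.48% and 1.79%, with flanks at 1.11%, 0.773% and 0.621%. The TGTTTAC site of FOX factors stood in 2.22%, 1.55% and 2.97%, close to its flanks at 2.46%, 2.59% and 2.78%. A letter match is a description and not a site. In A549 or H460 hypoxia 70.8% of shared pairs, 18.1% of HCT116-only and 4.70% of RKO-only peaks were called.

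**Figure D4:**
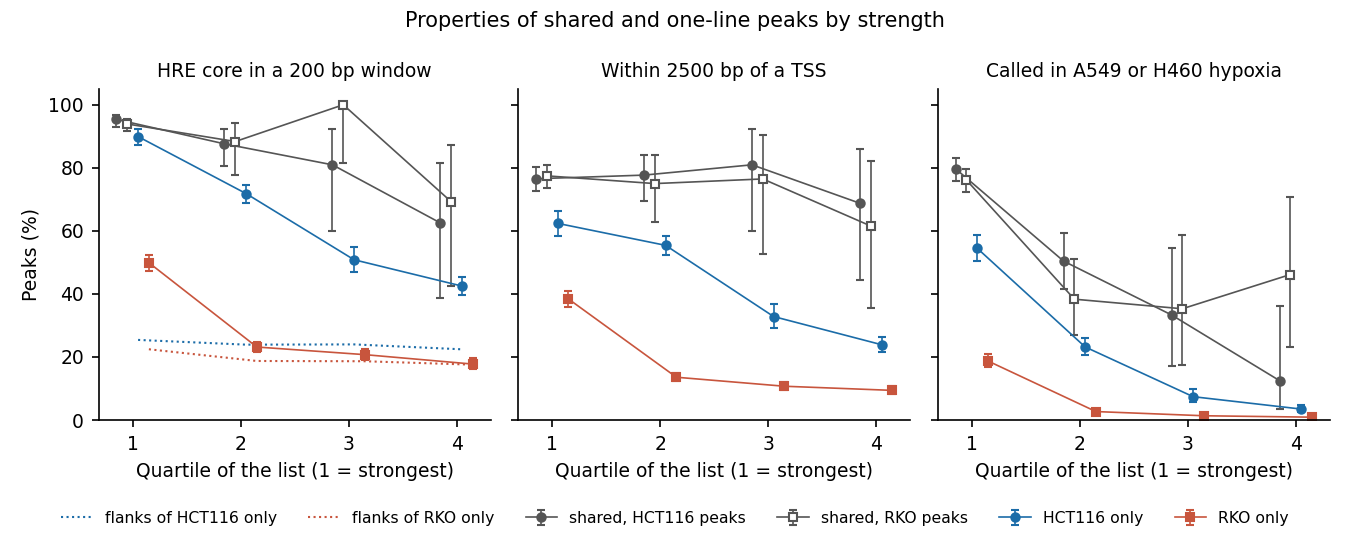
Share of peaks in percent with the HRE core in 200 bp (left), within 2500 bp of a TSS (middle) and called in A549 or H460 hypoxia (right), by quartile of the own list with 1 the strongest. Grey marks shared peaks (filled in HCT116, open in RKO), blue HCT116-only and red RKO-only peaks, bars are Wilson 95% intervals, and dotted lines are the HRE core in the flanks. In the strongest quartile the core stood in 89.9% of HCT116-only and 49.9% of RKO-only peaks.

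RKO-only peaks were unevenly spread over the chromosomes. Chromosome 8 held 13.3% of them (1138 peaks, interval 12.6 to 14.1), against 4.44% of the shared and 7.31% of the HCT116-only peaks and 4.82% of the length of the chromosomes. Chromosome 10 held 6.50% of RKO-only and 6.06% of HCT116-only peaks, for 4.46% of the length. Shares of whole chromosomes hide differences along their length. On chromosome 10, the part from 10 to 20 M bp held 83 RKO-only and 5 HCT116-only peaks. The part from 120 to 130 M bp held 19 and 31. On chromosome 7 the counts were 91 and 15 from 120 to 130 M bp, and 27 and 47 from 0 to 10. On chromosome 8 they were 126 and 29 from 100 to 110 M bp, and 18 and 9 from 0 to 10. These parts were picked after the counts were seen. Chromosomes 7, 8, 9 and 20, named after the values were seen, together held 34.9% of RKO-only peaks (33.9 to 35.9), 18.4% of HCT116-only peaks (17.1 to 19.7) and 14.6% of shared pairs, for 16.8% of the length. In the RKO normoxia list they held 48.5% of the peaks, and in the hypoxia lists of A549 and H460 19.6% and 15.9%. The HRE core stood in 21.1% of the RKO-only peaks on these chromosomes (19.7 to 22.7) and in 28.5% of those elsewhere (27.3 to 29.7). On chromosome 8 the share was 17.1%. The median local fold of RKO-only peaks, where at least 3 was required, was 3.46 on chromosome 8, 3.93 on 9, 4.17 on 7 and 4.335 on 20. It was 4.62 on chromosome 10 and from 5.19 to 6.09 on the others. At shared pairs the median log2 ratio of HCT116 over RKO, relative to that of all pairs, was -0.06 on chromosome 7 (33 pairs), -0.0014 on chromosome 8 (28 pairs), -0.02 on chromosome 9 (22 pairs) and -0.61 on chromosome 20 (9 pairs). On chromosome 20 the shared signal was thus lower in HCT116 relative to RKO, while on the others the medians were close to that of all pairs. The part of the chromosomes in the RKO-only calls was not tested. Without these chromosomes 8.84% of RKO peaks were shared.

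**Figure D5:**
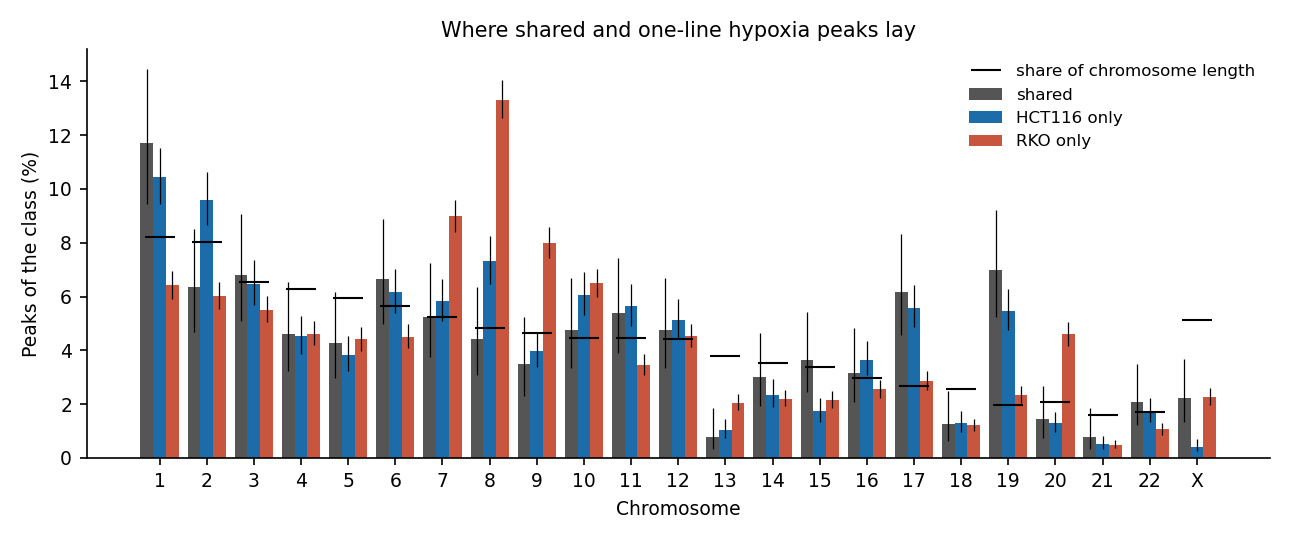
Share of shared (grey), HCT116-only (blue) and RKO-only (red) hypoxia peaks on each chromosome, in percent of the class, with Wilson 95% intervals; black dashes are the share of chromosome length. Chromosome 8 held 13.3% of RKO-only peaks and 4.44% of shared peaks.

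Genes were then followed by their role, with 12 lists of 139 genes in all. A gene counted when a peak centre lay within 2500 bp of its TSS. Over all 38878 protein-coding and lncRNA genes, 2.27% had such a peak in both lines, 4.41% in HCT116 only and 4.21% in RKO only. Among 18 glycolytic enzyme genes, 10 had a peak in both lines, 3 in HCT116 only and 0 in RKO only. Besides ENO1, GPI and LDHA, the genes with peaks in both were HK2, which phosphorylates glucose (21.0 tags per 10 M in HCT116 and 19.4 in RKO), PFKL, a phosphofructokinase (16.3 and 9.87), the aldolases ALDOA (42.8 and 39.3) and ALDOC (11.5 and 10.2), GAPDH (19.6 and 18.8), the enolase ENO2 (13.7 and 13.3), and PGAM1, whose peak is the one in RRP12. The genes with a peak in HCT116 only were TPI1 (11.3), PKM (7.60) and PFKP (3.93). Counting the whole gene body moved PKM, whose intron peak had 20.0 and 20.9, to the shared genes, together with PFKFB4, a regulator of phosphofructokinase (53.2 and 35.3), PGK1 (14.5 and 20.5) and, at separate positions, PFKP. By that count 14 of 18 had peaks in both lines, with TPI1 in HCT116 only and PFKFB3 in RKO only. Over all genes the gene body count gave 4.52% in both lines, 6.05% in HCT116 only and 11.4% in RKO only.

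Of 9 mitochondrial genes, 4 had no peak in either line, 3 had peaks in both (PDK1, BNIP3L and the mitochondrial protease gene LONP1, 24.7 and 14.6), and 2 in HCT116 only, BNIP3 and the pyruvate dehydrogenase kinase gene PDK3 (10.2). Of 8 genes for transport of glucose, lactate and protons, 1 had a promoter peak in both lines, 1 in HCT116 only and 2 in RKO only. SLC16A1, a lactate carrier gene (6.58), and CA9, a carbonic anhydrase gene (4.78), had promoter peaks in RKO only, and CA12 had an intron peak in RKO only (8.67). In HCT116 only the SLC16A3 promoter was called (4.42), beside the stronger shared peak inside the gene. Over the gene body 4 of 8 transport genes were called in RKO only and 1 of 8 in HCT116 only, and over all genes RKO-only calls were also the more frequent by this count.

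Of 9 oxygen sensing genes, 6 had no peak within 2500 bp of the TSS in either line. EGLN1, which encodes the main HIF1A prolyl hydroxylase, had 40.4 in HCT116 and 28.0 in RKO at its promoter. HIF3A, a HIF family member, was called in HCT116 only (6.87), and EGLN2 in RKO only (4.78). Of 8 histone demethylase genes, which encode oxygen-dependent enzymes, 4 had peaks in both lines: KDM3A (28.8 and 34.1), KDM4B (29.4 and 21.2), KDM6B (12.9 and 12.1) and, at separate positions, JMJD6 (7.36 and 3.14). The RKO peak counted for JMJD6 lay in an intron of METTL23, held no HRE core and was below the RKO list median of 3.29. KDM5C was called in RKO only (10.8). Of 11 matrix genes, 8 had no such peak in either line. P4HA1, a collagen prolyl hydroxylase, was shared (37.3 and 30.0) and COL13A1 was called in HCT116 only (2.82). The COL13A1 peak held no HRE core and lay below the HCT116 list median of 3.07. P4HA2 had intron peaks of 20.5 and 10.6 that did not overlap.

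Of 11 genes in the list of growth and secreted factors, 4 had peaks in both lines: ANKRD37, the mTOR inhibitor gene DDIT4 (18.9 and 12.6), the angiogenic factor VEGFA (4.42 and 6.88), and ANGPTL4 (7.97 and 6.43, at separate positions). FOXO3 (8.46) and RRAGD (5.27) were called in HCT116 only. Of 12 transcription regulators, BHLHE40 (17.0 and 13.8), BHLHE41 (3.56 and 3.74), CITED2, an inhibitor of HIF1A at its coactivator (6.50 and 7.03), and MAX (5.40 and 7.18) had peaks in both. The circadian repressors PER1 (4.04) and PER2 (7.62), and MNT (3.89) and MXI1 (3.14), both partners of MAX, had promoter peaks in RKO only. The MXI1 promoter peak held no HRE core and lay below the RKO list median of 3.29. ELF3, an epithelial transcription factor, and ZNF395 had one in HCT116 only, each with 4.42. Away from its TSS, MXI1 had the shared intron peak given above, and PER1 had an HCT116 intron peak with 4.29.

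Lineage and signalling genes were followed in the same window, where the shares over all genes are 2.27% in both lines, 4.41% in HCT116 only and 4.21% in RKO only. Of 20 intestinal epithelial genes 0 had a promoter peak in both lines, and CDH1, the epithelial cadherin (3.19), and ELF3 (4.42) were called in HCT116 only. Of 15 mesenchymal genes AXL alone had one, in HCT116 (2.94). Of 13 WNT pathway genes the feedback genes AXIN2 (4.66) and RNF43 (3.56) had one in HCT116 only. Of 10 AP-1 family genes MAFF was called in both (8.22 and 6.73), and JUND (8.83), JUNB (7.36) and FOSL1 (2.45) in HCT116 only. The values of CDH1, AXL and FOSL1 were near the HCT116 minimum of 2.09.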

How the data were processed

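Groups were taken from sample titles. The authors aligned reads to GRCh37 (hg19) with Bowtie2 2.2.9 (per the submitters' processing notes), merged the replicates and called peaks with HOMER 4.3 against the input of the line. The deposited signal is the normalized tag count, in tags per 10 M (10 times 1000000) library tags. The deposited ratio columns are fold over input and fold over the surrounding 10000 bp, and 3-fold over the latter was required. Whole tags per peak were recovered from the normalized tag count and the library total in the file header. There is no replicate error, and intervals cover counting error only. Overlaps were computed with own code, checked against bedtools 2.31.1 and tested on simulated data. Ratios at shared pairs have exact conditional binomial intervals from the tags, with SciPy 1.17.1, and shares have Wilson intervals. Genes and TSSs are those of GENCODE release 44 mapped to GRCh37, 1 TSS per protein-coding or lncRNA gene. Tied signals share a mean rank. Positions are those of the deposited lists. Named loci are the 10 pairs with the best mean rank, the 6 pairs per direction with the widest gap in rank percentile among those in the top 25% of either list, the 12 strongest peaks per line called in that line only, and members of the gene lists. The members and lists were chosen with earlier results of these data known. Further named loci, among the pairs more than 2-fold from the median ratio, were chosen after their values were seen. Results at a few loci are not reported here.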

Additional observations from a re-analysis of the deposited data

How the results depend on the processing

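The 13 alternatives kept the order of the classes: the HRE core, proximity to a TSS and calls in the lung lines were most frequent at shared peaks, then at HCT116-only and last at RKO-only peaks, wherever an alternative touched them. Of 68 comparisons of the main values, 45 stayed close to the reported value: within its 95% interval or, for the count of pairs in the top 100 of both, within 1.5 times. The share of HCT116 peaks in shared pairs was 18.4% with edges within 500 bp, 9.96% with a fold over input of at least 14 and 35.8% with a local fold of at least 6. For RKO peaks it was 7.98%, 5.23% and 17.5% in the same order, 14.9% with the RKO list cut to the length of the HCT116 list and 8.84% without chromosomes 7, 8, 9 and 20. Spearman's rank correlation was 0.85 with the fold of at least 14 and 0.15 when ranked by fold over input, where 15 pairs stood in the top 100 of both. The median log2 ratio was 0.25 with the fold of at least 14 and 0.24 per bp. The HRE core in HCT116-only peaks was at 65.6% with the fold of at least 14, 87.1% with the local fold of at least 6, 62.9% with at least 1 input tag and 47.0% in 100 bp. In RKO-only peaks it was at 29.1%, 37.2%, 28.0% and 17.5% in the same order, 35.3% in the cut list and 28.5% without the 4 chromosomes. With the fold of at least 14, 160 pairs were shared. The cause of these changes was not tested. The exclusion of the 4 chromosomes, the exclusion of peaks called in normoxia and the gene body count were chosen after seeing the data.

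No paired analysis was possible because the replicates were merged before peak calling, and no replicate could be left out for the same reason. The weakest listed peaks held 17 tags in HCT116 and 13 in RKO, and sites that were not called could not be compared. The part of depth in these minimums was not tested.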
